A study of Mus musculus with 4 samples.

Results

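The 9 genes described here are Sipa1 and 8 further genes of the Rap1 GTPase switch (Sipa1l1, Sipa1l3, Rap1a, Rap1b, Rapgef1, Rapgef6, Rasgrp2 and Rassf5), out of 55401 genes in the deposited table. Sipa1 was selected because it had the most entries per gene in the splicing table of the same libraries, and the other members were picked by name for their part in Rap1 signaling with results of these data known. RNA was sequenced from follicular B (FOB) cells, the mature B cells that fill the follicles of the spleen and recirculate, sorted from C57BL/6 mice as B220+CD93-CD23highCD21low. WT cells carried floxed Hnrnpf alleles (Hnrnpf fl/fl) and no Cre recombinase. Hnrnpf bKO cells carried the same floxed alleles together with a Cre recombinase that is active in the B cell lineage and deletes Hnrnpf there. The labels give an age of 7 weeks for both groups, and each group had 2 libraries. The comparison asks how the mRNA of FOB cells differs when hnRNP F, an RNA-binding protein that regulates splicing and binds runs of G, is missing. Both alleles of Hnrnpf were floxed in both groups, so the groups differed by Cre as well as by hnRNP F, and these cannot be told apart here.

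Rap1 is a small GTPase of the Ras family that is active when bound to GTP. Guanine nucleotide exchange factors (GEFs) load it with GTP, and GTPase-activating proteins (GAPs) switch it off by promoting GTP hydrolysis. In lymphocytes active Rap1 engages adaptors that link it to integrins, and it is known for controlling adhesion, polarity and migration after antigen or chemokine receptor signals. Among the members, Rap1a and Rap1b are the GTPases. Sipa1, also called SPA-1, is a Rap GAP abundant in lymphoid cells, and Sipa1l1 and Sipa1l3 are its relatives. Rapgef1, Rapgef6 and Rasgrp2 (CalDAG-GEFI) are exchange factors. Rassf5 gives rise to RAPL, an adaptor that binds active Rap1.

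The libraries held 16360435 and 18908963 counts in WT against 15698567 and 18074619 in Hnrnpf bKO. Hnrnpf itself had 5780 and 6634 counts in WT against 1167 and 1194 in Hnrnpf bKO (log2 fold change −2.32). B cell genes were abundant in every library, with 12391 or more counts of Ms4a1 and 35756 or more of Cd79a. Of them, Ms4a1 (log2 fold change −0.29), Pax5 (−0.20) and Cr2 (−0.47) passed as lower and Fcer2a (0.22) and Ighd (0.28) as higher in Hnrnpf bKO by the test described below, while Cd79a and Cd79b did not pass. Cr2 and Fcer2a encode CD21 and CD23, which were used in the sort. Of 6 marginal zone B cell genes, 2 passed as higher (Cd1d1 and Plac8) and 2 as lower (S1pr3 and Dtx1). T cell markers summed to 82.3 and 104.4 CPM in WT and to 69.8 and 82.3 CPM in Hnrnpf bKO, where CPM are counts scaled to the same library total, and the lowest adjusted p of these 8 genes was 0.077 (Lck, edgeR). Myeloid markers summed to 15.5 and 23.1 CPM in WT and to 25.5 and 35.6 CPM in Hnrnpf bKO, and of these 7 genes S100a8 (log2 fold change 1.53) and S100a9 (1.34) passed as higher in Hnrnpf bKO. The other 5 myeloid markers did not pass, with log2 fold changes of 0.71 for Itgam, 0.56 for Lyz2, −0.0014 for Csf3r, −0.21 for Csf1r and −0.86 for Adgre1. Neither the labels nor the methods say whether libraries came from separate mice. The p-values therefore rest on the spread between these libraries and may not cover variation between mice. An exact two-sided permutation test of 2 against 2 libraries cannot go below p = 0.333, and tests therefore come from edgeR's quasi-likelihood fit, which shares the spread across all 14123 tested genes. A gene passed at a Benjamini-Hochberg adjusted p of at most 0.05.

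Of the 9 members, Rasgrp2 alone passed this test. Its mRNA was 1.26-fold higher in Hnrnpf bKO FOB cells. The other 8 did not pass, and 0 members fell with edgeR, DESeq2 or limma. At an unadjusted p under 0.05, 3 members were higher (Rasgrp2, Rapgef1 and Rapgef6) and 2 lower (Sipa1 and Sipa1l1). Over all 14123 tested genes, 2862 had an unadjusted p under 0.05 (edgeR). Counts at this threshold in the lists below stand beside that number, and nothing is read from them. Among all tested genes, 4.15% passed as higher, 2.83% as lower and 6.97% in either direction, while 0.899% passed with a fold change of at least 2. All 9 members had non-overlapping CPM between the genotypes, as did 50.4% of the tested genes. The median log2 fold change was −0.09 over the members and −0.0023 over all tested genes.

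Levels of different genes were compared as FPKM, which scales counts by exonic length and library total. The order of genes depends on that length. For Rasgrp2 it was 12384 bases against 2296 in the longest principal transcript, and for Rap1b 2884 against 2724. By mean WT CPM, without a length, Rasgrp2 (807.5) was above Rap1b (250.6) and below Sipa1 (1246). Sipa1 had the highest FPKM of the 9. Its FPKM was 282.89 and 281.07 in WT and 256.98 and 260.63 in Hnrnpf bKO. Rap1b followed in WT at a mean FPKM of 86.9 ± 3.98 (SD, n = 2), then Rasgrp2 at 65.2 ± 2.0 and Rapgef1 at 64.5 ± 1.22, which did not differ beyond their spread. Rassf5 had 48.7 ± 1.13, Rap1a 31.6 ± 0.18 and Rapgef6 20.8 ± 0.41. The relatives of Sipa1 were far lower, with Sipa1l1 at 9.53 ± 0.08 and Sipa1l3 at 3.92 ± 0.51. In Hnrnpf bKO cells Rasgrp2 (81.5 ± 2.43) and Rap1b (80.7 ± 0.09) lay within their spread of each other, and the order of the remaining members was the same as in WT.

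**Figure D1:**
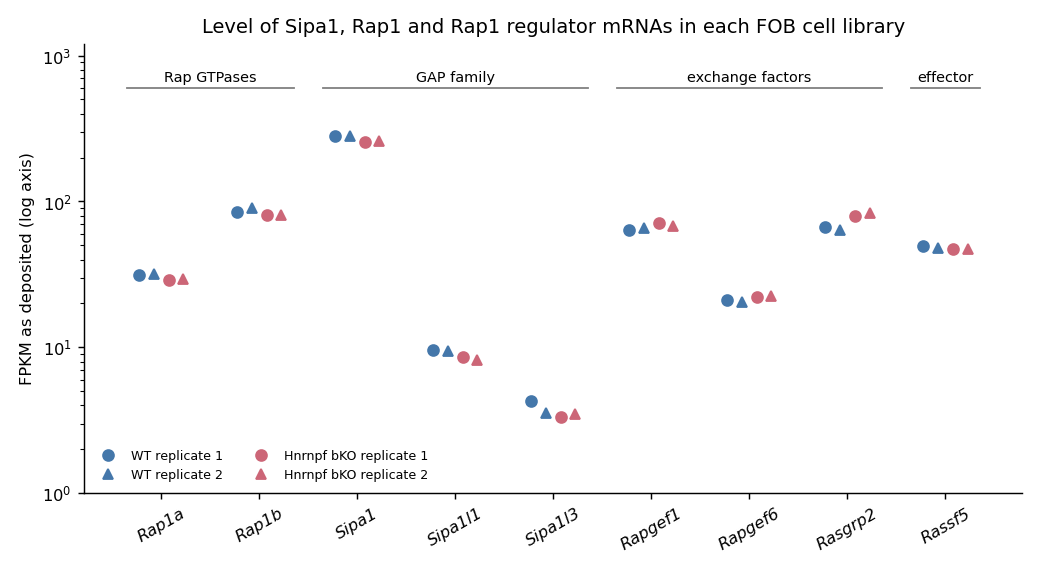
Deposited FPKM of each of the 9 genes (log axis) in the 4 FOB cell libraries, grouped by role. Points are single libraries, blue for WT and red for Hnrnpf bKO, and Sipa1 lies above 250 FPKM in every library while Sipa1l3 lies below 5.

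The GTPases were slightly less abundant in Hnrnpf bKO without passing the test. Rap1a (ENSMUSG00000068798) had 1342 and 1563 counts in WT against 1189 and 1393 in Hnrnpf bKO, or 82.0 and 82.7 CPM against 75.7 and 77.1 CPM. Both Hnrnpf bKO values lay under both WT values, and the log2 fold change was −0.10 (SE 0.06, adjusted p = 0.44, edgeR). Rap1b (ENSMUSG00000052681), the more abundant of the pair, had 3967 and 4892 counts in WT against 3658 and 4205 in Hnrnpf bKO. Its CPM of 242.5 and 258.7 in WT stood against 233.0 and 232.6, so that the WT libraries differed from each other by more than the nearer of them from Hnrnpf bKO. The log2 fold change of Rap1b was −0.09 (SE 0.05, adjusted p = 0.34), and it was −0.135 without WT replicate 1 and −0.05 without WT replicate 2. Together with Rap2a, Rap2b and Rap2c, the related GTPases of the Rap2 branch, 0 of 5 Rap GTPase genes passed with edgeR, DESeq2 or limma, and 1, Rap2c, was lower at an unadjusted p under 0.05.

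Sipa1 (ENSMUSG00000056917) had 20452 and 23486 counts in WT against 17827 and 20817 in Hnrnpf bKO. Scaled to library size this was 1250 and 1242 CPM in WT against 1136 and 1152 CPM, and the gap between the genotypes was wider than the spread within either. The log2 fold change was −0.11 (SE 0.04, 95% confidence interval −0.21 to −0.01), equal to a change of −7.48%. The unadjusted p was 0.027 and the adjusted p was 0.17 over all tested genes, so the difference did not pass. Sipa1 had a mean of 20646 counts, at percentile 99.6 of the tested genes.

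Sipa1l1 (ENSMUSG00000042700), a Rap GAP known from synapses as SPAR, had 2009 and 2292 counts in WT against 1716 and 1885 in Hnrnpf bKO. Its 122.8 and 121.2 CPM in WT were above its 109.3 and 104.3 CPM in Hnrnpf bKO, with a log2 fold change of −0.18 (SE 0.06, unadjusted p = 0.0073, adjusted p = 0.080). Of the members that did not pass, it came nearest to the threshold. Sipa1l3 (ENSMUSG00000030583) had 1158 and 1114 counts in WT against 867 and 1044 in Hnrnpf bKO. In CPM, 70.8 and 58.9 in WT stood against 55.2 and 57.8, and WT replicate 1 was the library that stood apart. The log2 fold change of Sipa1l3 was −0.18 (SE 0.09, adjusted p = 0.27). It was −0.04 (adjusted p = 0.88) without WT replicate 1 and −0.31 (adjusted p = 0.033) without WT replicate 2, so 1 library decides this value. The list of 9 GAP genes for Rap and related GTPases adds Sipa1l2, Rap1gap, Rap1gap2, Rasa3, Rasal3 and Arap3. Arap3 is also in the list of Rap effectors. Of the 9 genes, 0 passed in either direction with edgeR, DESeq2 or limma. At an unadjusted p under 0.05, 3 of them (Sipa1, Sipa1l1 and Sipa1l2) were lower, and the median log2 fold change of the list was −0.14.

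**Figure D2:**
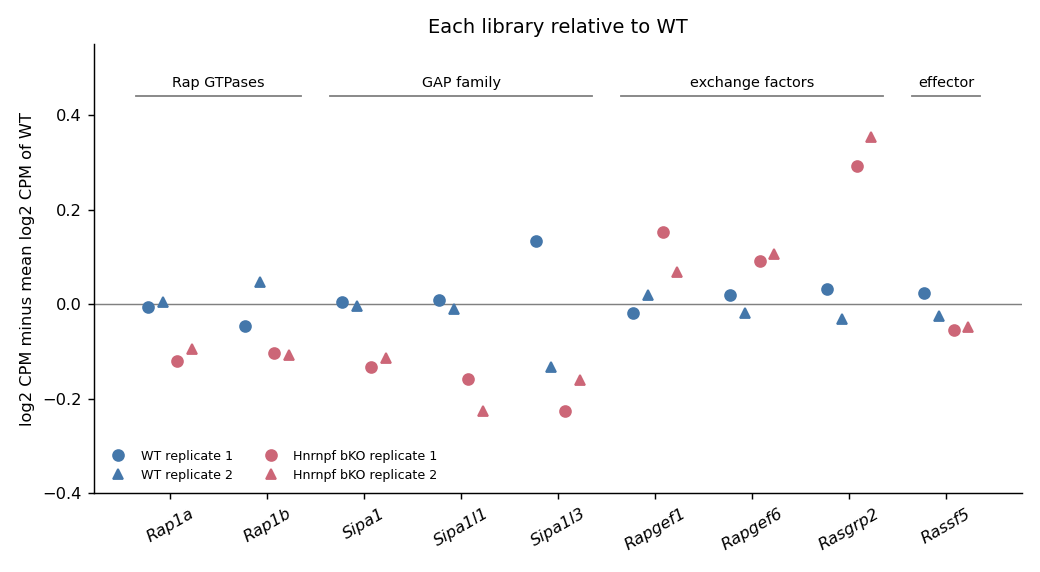
For each of the 9 genes, log2 CPM of each library minus the mean log2 CPM of the 2 WT libraries. Blue points are WT and red points Hnrnpf bKO, with circles for replicate 1 and triangles for replicate 2; Rasgrp2 lies highest in both Hnrnpf bKO libraries, and the WT points of Sipa1l3 are the farthest apart of any gene.

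Rasgrp2 (ENSMUSG00000032946, chromosome 19 of GRCm38 from 6399340 to 6415216, plus strand) encodes an exchange factor for Rap1 that responds to calcium and diacylglycerol. Its counts were 13498 and 14938 in WT and 15510 and 18626 in Hnrnpf bKO. In CPM, 825.0 and 790.0 in WT stood against 988.0 and 1031, and neither Hnrnpf bKO library overlapped the WT range. The log2 fold change was 0.33 (SE 0.05, 95% confidence interval 0.23 to 0.44, adjusted p = 0.0014, edgeR). The rise was present in both Hnrnpf bKO libraries. With limma on log2(FPKM + 1) the adjusted p of Rasgrp2 was 0.055 at a log2 fold change of 0.32, and over all 10 alternatives it passed in 9, with log2 fold changes from 0.30 to 0.37.

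Rasgrp2 is also expressed in platelets, neutrophils and T cells. The platelet gene Itga2b had 53 and 69 counts in WT against 40 and 30 in Hnrnpf bKO. Pf4, a defining platelet gene, had at most 3 counts in any library, and Gp1bb and Treml1 had 0 in all 4. The summed platelet markers were 3.55 and 3.86 CPM in WT and 2.80 and 2.16 CPM in Hnrnpf bKO. Of these sums, Itga2b alone had 3.24 and 3.65 CPM in WT and 2.55 and 1.66 CPM in Hnrnpf bKO. The summed T cell markers were 82.3 and 104.4 CPM in WT and 69.8 and 82.3 CPM in Hnrnpf bKO. Lck alone had 52.2 and 59.9 CPM of these sums in WT and 44.7 and 47.3 CPM in Hnrnpf bKO. The median log2 fold change of the T cell markers was −0.31. The summed myeloid markers were higher in Hnrnpf bKO. Of the 7 genes, S100a8 and S100a9 passed as higher, and the others did not pass. Itgam (log2 fold change 0.71) and Lyz2 (0.56) lay above 0, Csf3r (−0.0014) at about 0, and Csf1r (−0.21) and Adgre1 (−0.86) below 0. Whether platelets, T cells or myeloid cells had a part in the result for Rasgrp2 was not tested. In bulk RNA, more cells of a type and more RNA per cell cannot be told apart. Gm14965 overlaps 5817 bases of Rasgrp2 on the opposite strand and held between 1 and 7 counts per library. The library kit was not directional, so reads from the shared bases cannot be assigned to either gene by strand.

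Rapgef1 (ENSMUSG00000039844), which is recruited through Crk adaptors, had 7789 and 9248 counts in WT against 8416 and 9138 in Hnrnpf bKO. Its CPM was 476.1 and 489.1 in WT and 536.1 and 505.6 in Hnrnpf bKO, with a log2 fold change of 0.12 (SE 0.05, unadjusted p = 0.028, adjusted p = 0.18). Rapgef6 (ENSMUSG00000037533), a PDZ domain exchange factor for Rap1 and Rap2, had 4582 and 5152 counts in WT against 4623 and 5371 in Hnrnpf bKO. At 280.1 and 272.5 CPM against 294.5 and 297.2 CPM, its log2 fold change was 0.11 (SE 0.05, unadjusted p = 0.044, adjusted p = 0.23). For both genes the Hnrnpf bKO libraries lay above the WT libraries by less than the test required. In the list of 11 exchange factors for Rap and related GTPases, 10 were tested and 1, Rasgrp2, passed, against 6.97% of all tested genes. The median log2 fold change was 0.10. The exchange factors summed to 2173 and 2152 CPM in WT and to 2420 and 2445 CPM in Hnrnpf bKO, while the GAPs summed to 2621 and 2610 CPM in WT and to 2481 and 2523 CPM in Hnrnpf bKO. Rasgrp2 and Sipa1 make up most of those differences.

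Rassf5 (ENSMUSG00000026430), the adaptor gene, had 3237 and 3620 counts in WT against 2943 and 3401 in Hnrnpf bKO. Its 197.9 and 191.4 CPM in WT and 187.5 and 188.2 CPM in Hnrnpf bKO differed by −0.04 on the log2 scale (SE 0.05, 95% confidence interval −0.15 to 0.07, adjusted p = 0.72). This value was −0.01 without WT replicate 1 and −0.06 without WT replicate 2. Eif2d overlaps 11249 bases of Rassf5 on the opposite strand and had between 868 and 1107 counts, with a log2 fold change of −0.10 (adjusted p = 0.49). The library kit was not a directional kit, so reads from the shared bases cannot be assigned to either gene by strand.

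The wider pathway was described with lists that hold 56 genes, of which 53 were tested. Rasgrp2 rose and Itgal and Vasp fell, and 50 did not pass, while 6.97% of all tested genes passed in either direction. Itgal encodes the alpha chain of LFA-1, the integrin of lymphocytes that active Rap1 engages. It had 379.3 and 365.2 CPM in WT against 302.3 and 301.9 CPM in Hnrnpf bKO, with a log2 fold change of −0.29 (SE 0.05, adjusted p = 0.0037). Vasp, an actin regulator recruited to adhesion sites, had 317.0 and 337.9 CPM in WT against 274.4 and 259.0 CPM in Hnrnpf bKO, with a log2 fold change of −0.29 (SE 0.05, adjusted p = 0.0061). In both genes the Hnrnpf bKO libraries were the lowest of the 4. Itgb2, which encodes the beta chain of LFA-1, had a log2 fold change of −0.15 and did not pass (adjusted p = 0.13). Fermt3, the kindlin of blood cells, had −0.14 and did not pass either (adjusted p = 0.097). Of the 12 genes in the integrin list, 2 passed as lower and 10 did not pass. Their log2 fold changes ran from −0.40 to 0.05 with a median of −0.14, and Itga4 (0.03) and Itgb1 (0.05) lay above 0. With the 9 members left out, 0 of 44 tested pathway genes passed as higher and 2 as lower with edgeR and with DESeq2. Over all tested genes, 4.15% passed as higher and 2.83% as lower with edgeR. Nothing is read from the counts in these lists. At an unadjusted p under 0.05 (edgeR), 1 of the 44 was higher and 8 were lower, while 2862 of all 14123 tested genes had such a p. Of the 9 tested effectors and the 9 tested upstream genes, which include Crk, Plcg2 and Btk, 0 passed with any of the 3 tools, and at an unadjusted p under 0.05 the effectors gave 0 and the upstream genes 2, both lower. All 3 calls were lost with limma on log2(FPKM + 1).

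**Figure D3:**
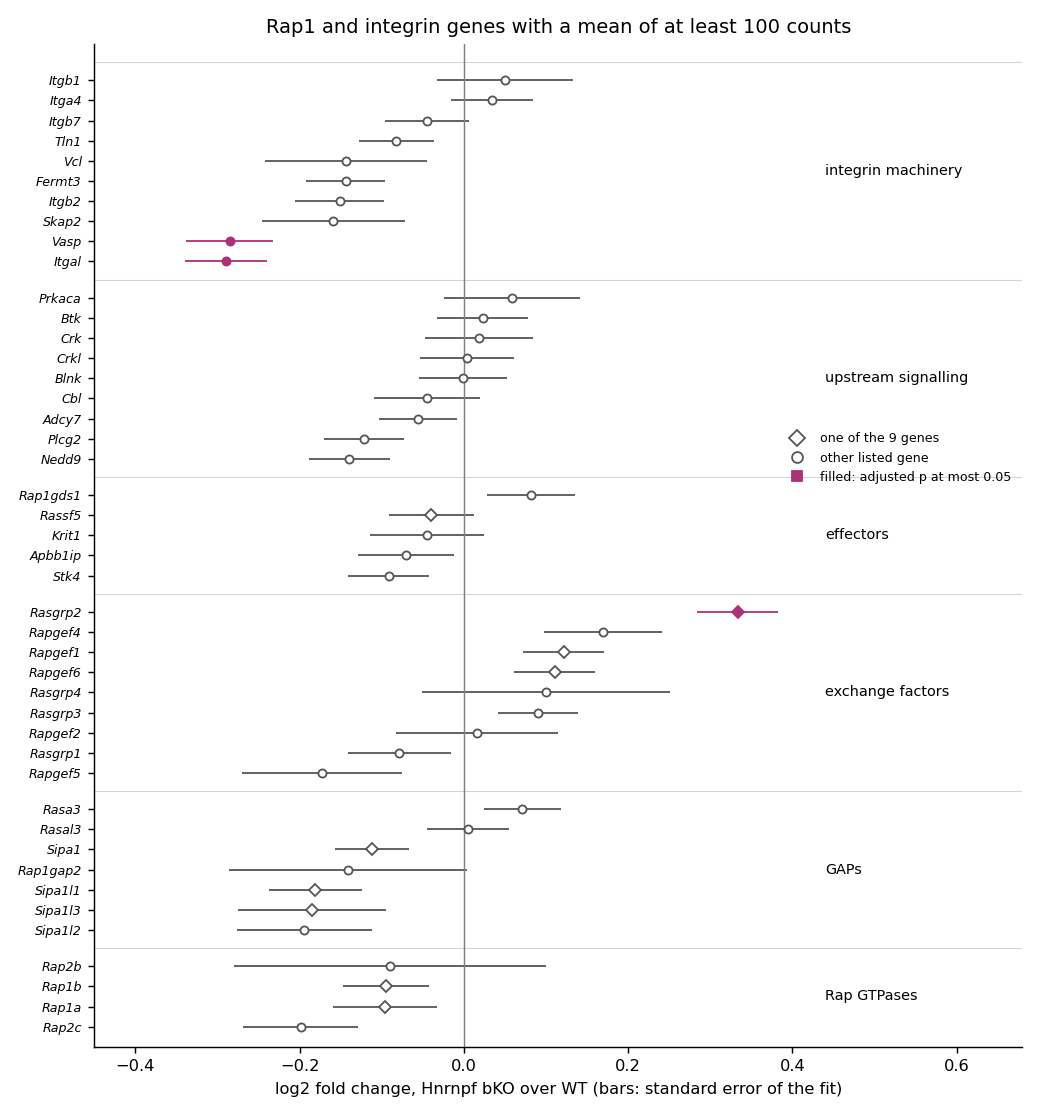
Log2 fold change of Hnrnpf bKO over WT for the 44 genes of the Rap1 and integrin lists with a mean of at least 100 counts, ordered within each list. Bars are standard errors of the edgeR fit and filled points passed an adjusted p of 0.05; Rasgrp2 is the filled point above 0, and Itgal and Vasp are the filled points below 0.

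Among genes of similar abundance, 3 followed the profile of Sipa1 across the 4 libraries most closely, by the distance between centred log2 CPM values over 180 candidates within 2-fold of its mean. They were Ddx6 (distance 0.0148), which encodes an RNA helicase of mRNA decay, Ptprc (0.0241), which encodes CD45, and Tln1 (0.0333), which encodes talin. Ddx6 had 633.5 and 632.0 CPM in WT and 579.3 and 579.6 CPM in Hnrnpf bKO, with a log2 fold change of −0.12 against −0.11 for Sipa1. Like Sipa1, these 3 genes did not pass the test. They were picked for their likeness to Sipa1, so nothing is read from the similar values or from this outcome.

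Splicing was described from the authors' table of alternative splicing events, made with rMATS, which lists 1556 events in 1173 genes. Each is typed as a skipped exon (SE), retained intron, alternative 5′ or 3′ splice site (A5SS, A3SS) or mutually exclusive exons. The paper describes such events as altered between WT and Hnrnpf bKO by its own cutoffs. An entry is therefore a difference called by the authors, and not any splice variant present in FOB cells. Sipa1 had 9 entries, 7 SE and 2 A3SS. It was chosen for this number, so the count is a description without a test. The next gene, BC051142, had 6, and 11 genes including Cd40 and Fcer2a had 5, while 912 of the 1173 genes had 1. Rapgef1 and Rapgef6 had 1 SE entry each. The remaining 6 members, among them Rasgrp2, had none. The members therefore hold 11 of the 1556 events. Of these 11, 9 are SE, while 65.4% of all listed events are SE. In all, 3 of 9 members had an entry, against 8.22% of the tested genes, and nothing is read from this share because Sipa1 was picked for its entries. A gene that is not listed was not shown to be spliced alike in both genotypes. Elsewhere in the pathway, Itgb2 and Skap1 had 1 SE each, Rapgef3 had 1 retained intron, and Rasal3 had 1 SE and 1 retained intron.

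The share of genes with an entry was larger at high depth, though not at every step. It was 1.13% in the lowest of 10 equal groups of tested genes by mean count and 14.6% in the highest, where 6 of the 9 members lie, Sipa1, Rapgef1 and Rapgef6 included. Sipa1l3 and Rap1a lie in the eighth group, where 10.4% of genes had an entry, and Sipa1l1 in the ninth, where 13.2% did. The part that depth has in the 9 entries of Sipa1 was not tested.

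**Figure D4:**
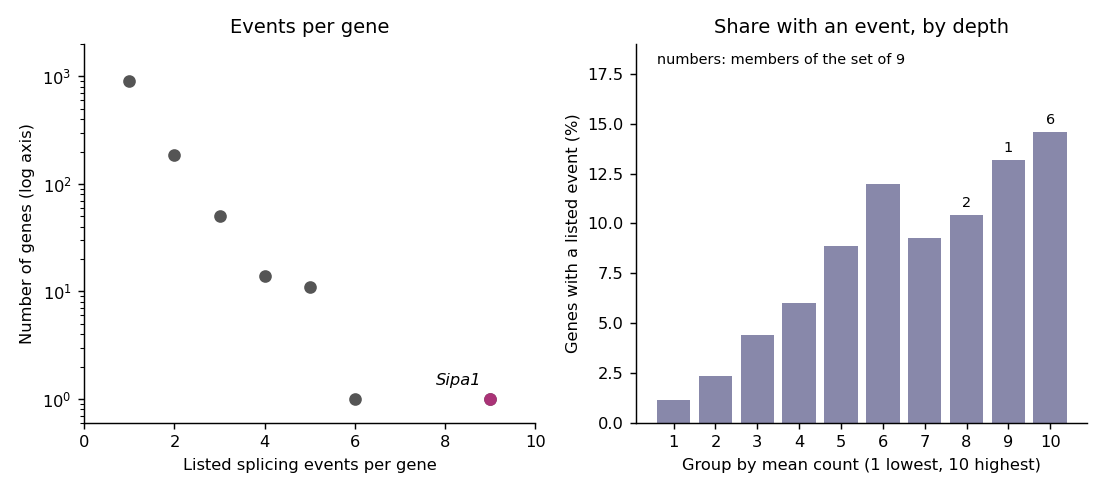
Left, number of genes (log axis) by how many events the splicing table lists for them, with Sipa1 at 9 and 912 genes at 1. Right, percent of genes with a listed event in each of 10 equal groups of the 14123 tested genes by mean count, from 1.13% to 14.6%, with the number of members above the bars that hold any.

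The table gives no position for an event, so entries were set beside the annotated transcripts (GENCODE release 21 of mouse, GRCm38) without being assigned to exons. Sipa1 lies on the minus strand of chromosome 19, from 5651185 to 5663707, overlaps no other annotated gene and has 13 annotated transcripts, 8 of them protein coding. This is more than for most genes, at percentile 95.4 of the tested genes, whose median was 4. Rasgrp2 has 24 annotated transcripts and Sipa1l3 has 18, and neither had an entry. The annotated exons of Sipa1 that some transcripts include and others skip between the same flanking splice sites lie upstream of the main start codon, in the 5′ untranslated part. They are an exon of 254 bases at chr19:5662588-5662841 and 3 forms of a small exon that ends at the same donor, of 28 bases (in a non-coding transcript), 31 and 63 bases, beginning 2049 to 2084 bases from the start of the gene. Flanking exons in different pairings give 8 annotated combinations in which these 4 forms are skipped. rMATS lists each pairing of a skipped exon with its flanking exons as an entry of its own, so 7 SE entries need not be 7 exons. The start codon used by 7 transcripts, at chr19:5660978-5660980, lies in the next exon, which has 3 annotated acceptors and lengths of 798, 768 and 85 bases. Its 85-base form starts downstream of that codon, and the transcript with it has its annotated start codon at chr19:5656263-5656265. A further annotated choice of acceptor makes an exon toward the end of the gene 219 bases long, or 85 in a non-coding transcript. None of the annotated skipped exons of Sipa1 holds coding sequence.

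**Figure D5:**
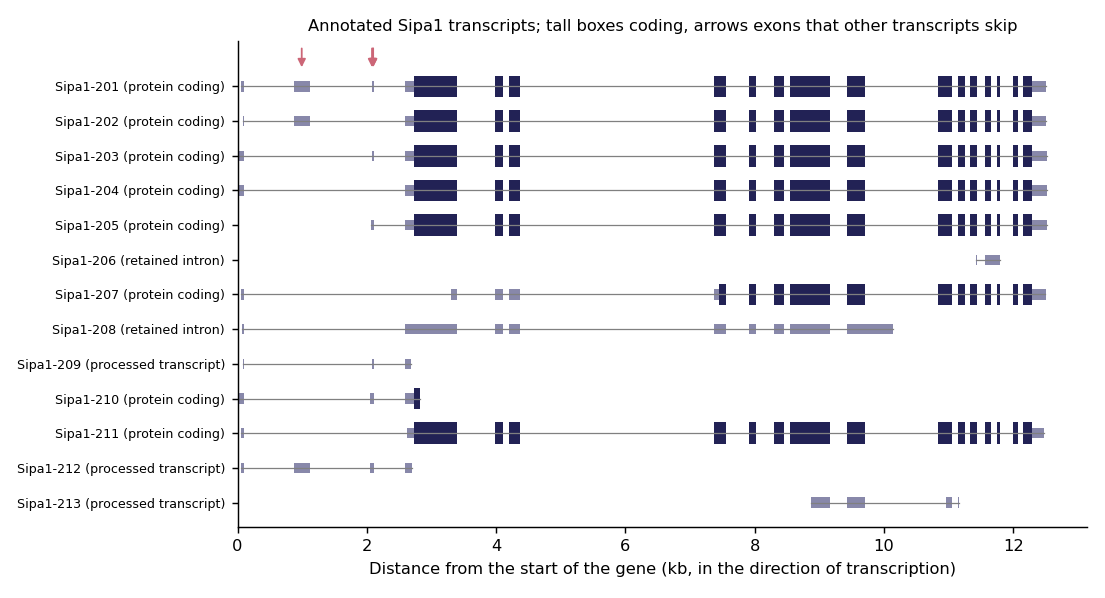
The 13 annotated Sipa1 transcripts drawn from the start of the gene in the direction of transcription (kb), with tall dark boxes for coding and low pale boxes for non-coding exon parts. Arrows mark the exons that other transcripts skip, at about 1 kb and 2 kb, both before the first coding box.

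Rapgef1 and Rapgef6 differ from Sipa1 in this respect, since their annotated skipped exons are coding and leave the reading frame intact. Rapgef6 has 3, of 15, 24 and 303 bases, and Rapgef1 has 4, of 114, 153, 258 and 96 bases, and all of these lengths are multiples of 3. The short exons of both exchange factors are shown in the sense of the transcript, with runs of 3 or more G in capitals. The single SE entry of each gene has no position. It may equally belong to a longer exon listed above, or to an exon not annotated as skipped.
Rapgef6 exon of 15 bases (chr11:54651749-54651763, plus strand): ctgttggtttttact
Rapgef6 exon of 24 bases (chr11:54671655-54671678, plus strand): gaagaagaggtggcggagtctGGG
Rapgef1 exon of 96 bases (chr2:29720643-29720738, plus strand): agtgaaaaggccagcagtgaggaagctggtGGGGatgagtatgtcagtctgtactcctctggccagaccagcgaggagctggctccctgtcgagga
Rapgef1 exon of 114 bases (chr2:29679737-29679850, plus strand): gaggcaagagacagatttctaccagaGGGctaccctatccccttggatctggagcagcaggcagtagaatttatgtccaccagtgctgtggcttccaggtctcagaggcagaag
The 24-base exon of Rapgef6 ends in GGG and the 15-base exon has no such run. A run of 3 or more G on the transcribed strand was present in 17.0% of internal coding exons between 0.8 and 1.2 times the length of the 24-base exon, and in 12.5% for the 15-base exon. The Rapgef1 exons of 96 and 114 bases hold 1 run each, of 4 and 3 G, and 59.2% and 66.7% of internal coding exons of like length hold any. A match is a description of these letters and does not mark a binding site.

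Runs of G were also counted over the longest principal transcript of each gene, which leaves out introns. The paper places the hnRNP F sites that act on Cd40 splicing in introns, so these counts do not cover such sites. Sipa1 had 62 runs of 3 or more G in 3812 bases, or 16.3 per kb. The median over tested genes was 12.1 per kb (quartiles 9.15 and 15.6), and it was 12.7 per kb over genes with an entry in the splicing table. Sipa1l3 had 15.6, Rasgrp2 15.2, Rapgef1 14.8 and Sipa1l1 14.7 per kb, of which Rapgef1 had an entry. Rapgef6, with an entry, had 8.18 per kb, and Rap1a and Rap1b had 7.89 and 7.71 per kb.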

How the data were processed

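Poly(A) RNA of sorted FOB cells from 2 WT and 2 Hnrnpf bKO samples was sequenced, and groups and replicate numbers were taken from the labels. The authors trimmed reads with Cutadapt 1.9.1, aligned them to GRCm38 with HISAT2 2.0.1 and counted them per gene with HTSeq 0.6.1, as whole-number counts without normalization. The authors computed the deposited FPKM values from these counts, exonic gene size and library total. The strand setting, annotation release and treatment of reads that map to several places are not given in the sources used here, so counts of genes with near-identical copies are uncertain. The deposited splicing table gives for each event the gene, its type and 2 columns of the authors' own comparison, an FDR and an inclusion level difference. Those 2 columns were not used, and the types and numbers of events were counted.

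Counts were compared with edgeR 4.0.16 in R 4.3.3 (TMM, filterByExpr, quasi-likelihood F test), with adjustment over 14123 genes at an adjusted p of 0.05. Alternatives were RLE size factors, no filter, at least 10 counts in every library, DESeq2 1.42.0, which is the authors' tool, limma 3.58.1 with trend on log2(FPKM + 1), a block for replicate number, omission of 1 library at a time, and skipped exons only for the events. The steps were tested on simulated data. Counts of replicate libraries differed beyond sampling noise (chi-square per degree of freedom 4.13 in WT and 3.77 in Hnrnpf bKO) and each was counted as 1 sample. At this depth the median standard error was 0.061 on the log2 scale for genes averaging 1000 or more counts.

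The genes named were the 9 members, pathway genes that passed, Hnrnpf and the 3 genes most like Sipa1. Itgb2, Fermt3, Itga4, Itgb1, marker genes, genes with many events and overlapping genes were named after their values were seen. Members and lists were chosen with earlier results of these data known. Gene start and end matched the GENCODE release for 99.42% of 55141 shared identifiers. Transcript models and sequences are from GENCODE release 21, read with Python 3.11.15 and pandas 2.3.3. G runs were counted on the transcribed strand of spliced transcripts and exons, overlapping none of each other. A marker gene that is withheld is not reported here.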

Additional observations from a re-analysis of the deposited data

How the results depend on the processing

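Against 586 genes higher and 399 lower, DESeq2 called 370 and 250, limma on log2(FPKM + 1) 106 and 48, and the fit with the replicate number as a block 378 and 234, while without a filter on low counts 834 were higher and 636 lower. With each library left out in turn, 403 to 531 genes were higher and 276 to 333 lower. The cause of these shifts was not tested. Among members, 1 passed, and 0 did with limma, where 0 of the 3 pathway genes passed. Leaving out libraries gave 1 to 2 members passed and 3 to 4 pathway genes passed. Of 90 values of single members under an alternative, 88 kept their direction and side of the threshold, 1 (Rasgrp2 with limma) was no longer past it, 1 (Sipa1l3 without WT replicate 2) newly passed, and 0 changed sign. The replicate numbers are shared between the groups only as numbers. Deviations of same-numbered libraries had a correlation of −0.07 across genes that are not independent, and the replicate block kept 1 member (Rasgrp2, adjusted p = 0.012) and 3 pathway genes past the threshold. Groups of 2 limit what a call lost or gained by 1 library can show, and no group was large enough to test for a library far from the rest.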
